A study of Mus musculus with 4 samples.

Results

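The 48 genes described here encode the machinery that copies DNA: the proteins that license replication origins, the helicase and polymerases of the fork, and the enzymes that supply deoxynucleotides. They were chosen by name from a list of origin licensing, fork, polymerase and nucleotide supply genes. No rule on their measured levels was used, but earlier results of these data were known when the list was chosen. All 48 of the listed genes were found among the 19339 genes of the files. The values were RNA-seq levels in TCRβ+CD8αα+ intraepithelial lymphocytes (IELs), lymphocytes lying between the epithelial cells of the gut, with an αβ antigen receptor and CD8α chains in pairs, from the small intestine of C57BL/6 mice. There were 4 libraries: 2 control libraries from Kdm6bfl/fl mice, in which loxP sites flank the gene of the histone demethylase Kdm6b, and 2 libraries labelled Kdm6b-deficient from Kdm6bfl/fl-CD4Cre mice. Both groups therefore carry the floxed alleles. CD4Cre acts from the late double-negative thymocyte stage, so that other T cells of these mice can carry the deletion too. The paper reports normal Kdm6b expression in their TCRγδ IELs. Each library held RNA pooled from 3 mice, and the groups share the replicate numbers 1 and 3. The ages of the mice are not given in the sources used here. Nothing in the sources says whether the pools were sorted on separate days, so the p-values measure only the spread between pools.

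A replication origin is first bound by the origin recognition complex (ORC). Cdc6 and Cdt1 then load the ring-shaped MCM2-7 helicase, and geminin holds Cdt1 in check until the next cell cycle. In S phase, the Cdc7-Dbf4 kinase, Cdc45 and the GINS complex turn the loaded ring into an active helicase, and polymerases α, δ and ε copy the unwound strands behind it. Transcription of many of these genes is known to rise at the entry into S phase under E2F factors, so their levels in a cell population are widely used as a sign of cycling cells. In bulk samples, fewer cycling cells and less RNA per cell cannot be told apart.

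The promoters were searched for the letters that E2F factors are known to bind. RefSeq promoter sequences (GRCm38.p6, 250 bases before to 50 after the annotated start) were at hand for 40 of the 48 genes. Those for Mcm4, Gins1, Gins2, Gins4, Gmnn, Pole, Prim2 and Rfc2 were not used here. The E2F letters searched were TTTCCCGC, TTTGGCGC, TTTCGCGC and TTTGCCGC on both strands, and matches could overlap each other. They were present in 15 of the 40 genes (37.5%), against 2.6% of 27025 genes with a promoter sequence. By the same count, the CCAAT letters were present in 23 of the 40 (57.5%, against 41.1% of all genes) and the TTTGAA letters of the cell cycle homology region in 7 (17.5%, against 20.2%). The following stretches, a single match for each gene, are shown because they cover the sub-groups in which the E2F letters occurred. They read 5′ to 3′ on the gene's strand, with the matched letters in capitals.
Orc1, chr4:108579416-108579445, plus strand: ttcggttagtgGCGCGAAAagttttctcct
Cdc6, chr11:98908002-98908031, plus strand: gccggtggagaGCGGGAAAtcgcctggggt
Cdt1, chr8:122568036-122568064, plus strand: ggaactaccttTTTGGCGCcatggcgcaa
Mcm3, chr1:20820275-20820304, minus strand: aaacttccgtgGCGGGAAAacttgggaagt
Mcm5, chr8:75109345-75109374, plus strand: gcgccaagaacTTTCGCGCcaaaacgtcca
Mcm6, chr1:128359797-128359826, minus strand: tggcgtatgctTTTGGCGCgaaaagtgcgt
Mcm7, chr5:138171849-138171878, minus strand: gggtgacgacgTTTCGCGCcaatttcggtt
Gins3, chr8:95633507-95633536, plus strand: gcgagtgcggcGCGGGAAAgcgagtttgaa
Rfc3, chr5:151651200-151651229, minus strand: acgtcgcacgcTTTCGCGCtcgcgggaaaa
Pola1, chrX:93632275-93632304, minus strand: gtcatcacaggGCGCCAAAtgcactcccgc
Lig1, chr7:13278841-13278870, plus strand: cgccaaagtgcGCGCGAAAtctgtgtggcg

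Across sub-groups, the E2F letters occurred in 4 of 5 MCM2-7 genes with a promoter sequence, in both helicase loading genes with one, and in 4 of 7 polymerase genes. They occurred in 2 of 6 ORC genes and in 1 of 5 genes each of origin firing (Gins3), the clamp and its loader (Rfc3) and Okazaki fragment maturation (Lig1). None of the 5 nucleotide supply genes held them. Of the 21 matches, 14 began within 100 bases of the annotated start, and their median position was −27. A match describes letters in this window and is not evidence of binding, and the window says nothing about letters outside it.

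**Figure D1:**
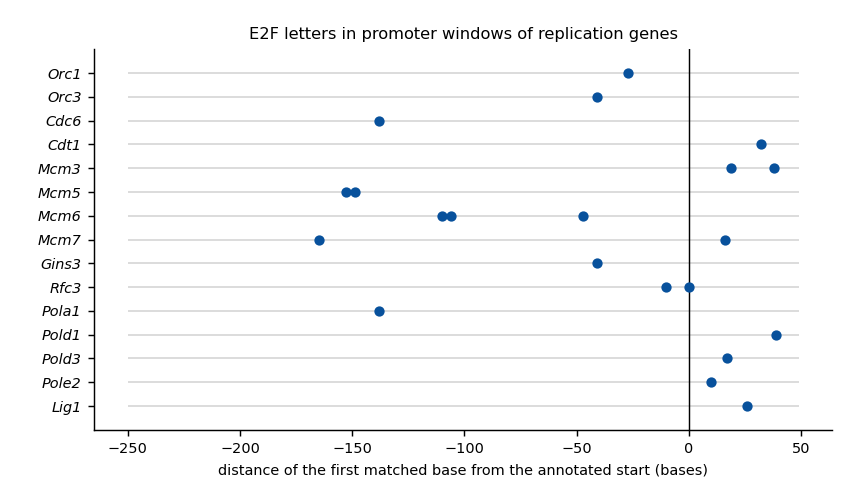
E2F letters in the promoter windows of the 15 replication genes that held them. The x axis gives the distance in bases of the first matched base from the annotated start (vertical line), each point is a match and each grey line spans the window. Of the 21 points, 14 lie within 100 bases of the start.

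Levels were deposited as FPKM, in which fragments are divided by the length of the transcript and by the size of the library, which lets genes be compared per unit of length. FPKM summed to between 578491 and 646671 per library, and between 1625 and 4531 genes were listed at 0. Total reads are not known, so no counting error was computed. From the smallest steps between low values, the depth relative to control replicate 1 was between 0.844 and 1.006. Kdm6b itself had 16.5 and 16.01 FPKM in control replicates 1 and 3, and 18.24 and 11.07 FPKM in those labelled Kdm6b-deficient replicates 1 and 3. It was thus not lower than the controls in the library labelled Kdm6b-deficient replicate 1. Which exons the deletion removes is not given in the sources used here, so that the gene's total level may not reflect it, and the label is used below without further check.

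The sorted cells carried their defining markers: the 12 T cell and IEL markers summed to 11000 and 8620 FPKM in control replicates 1 and 3, and to 7600 and 5470 FPKM in those labelled Kdm6b-deficient replicates 1 and 3. Markers of other cells differed between libraries too. The 22 epithelial markers were all lowest in control replicate 1 and all highest in the library labelled Kdm6b-deficient replicate 3. Their sum relative to control replicate 1 was 3.11 in control replicate 3, 2.81 in the library labelled Kdm6b-deficient replicate 1 and 7.66 in replicate 3. The 8 markers of intestinal crypts and progenitors, cells that divide, were likewise all lowest in control replicate 1 and all highest in the library labelled Kdm6b-deficient replicate 3, with ratios of 2.62, 2.78 and 6.72. Among other lists, 6 B cell markers summed to between 31.6 and 84.8 FPKM and 8 myeloid and dendritic markers to between 504 and 972 FPKM. Cd4 and Cd8b1, which the sort excluded, had 3.17 to 30.55 and 0 to 1.64 FPKM. No marker was at 0 in every library. The part of these other cells in the replication gene values was not tested.

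The replication genes were well expressed. Single values ran from 6.12 FPKM (Pole, library labelled Kdm6b-deficient replicate 1) to 242.21 FPKM (Pcna, control replicate 3). The median of the 48 mean levels was 41.1 FPKM, against 13.3 FPKM over the 12009 genes that had at least 1 FPKM in at least 2 libraries. All 48 genes passed that filter. Ranked by the mean of log2(FPKM + 1), 45 lay above the median gene, and the lowest, Pole, lay at percentile 40.8. Mean levels exceeded 100 FPKM in 4 genes (Mcm6, Pcna, Rfc2 and Rpa1). By position (GRCm38.p6), 10 of the 48 genes were on chromosome 5, among them 4 of the 5 genes of replication factor C, and 6 were on chromosome 8, among them 3 of the 4 GINS genes.

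**Figure D2:**
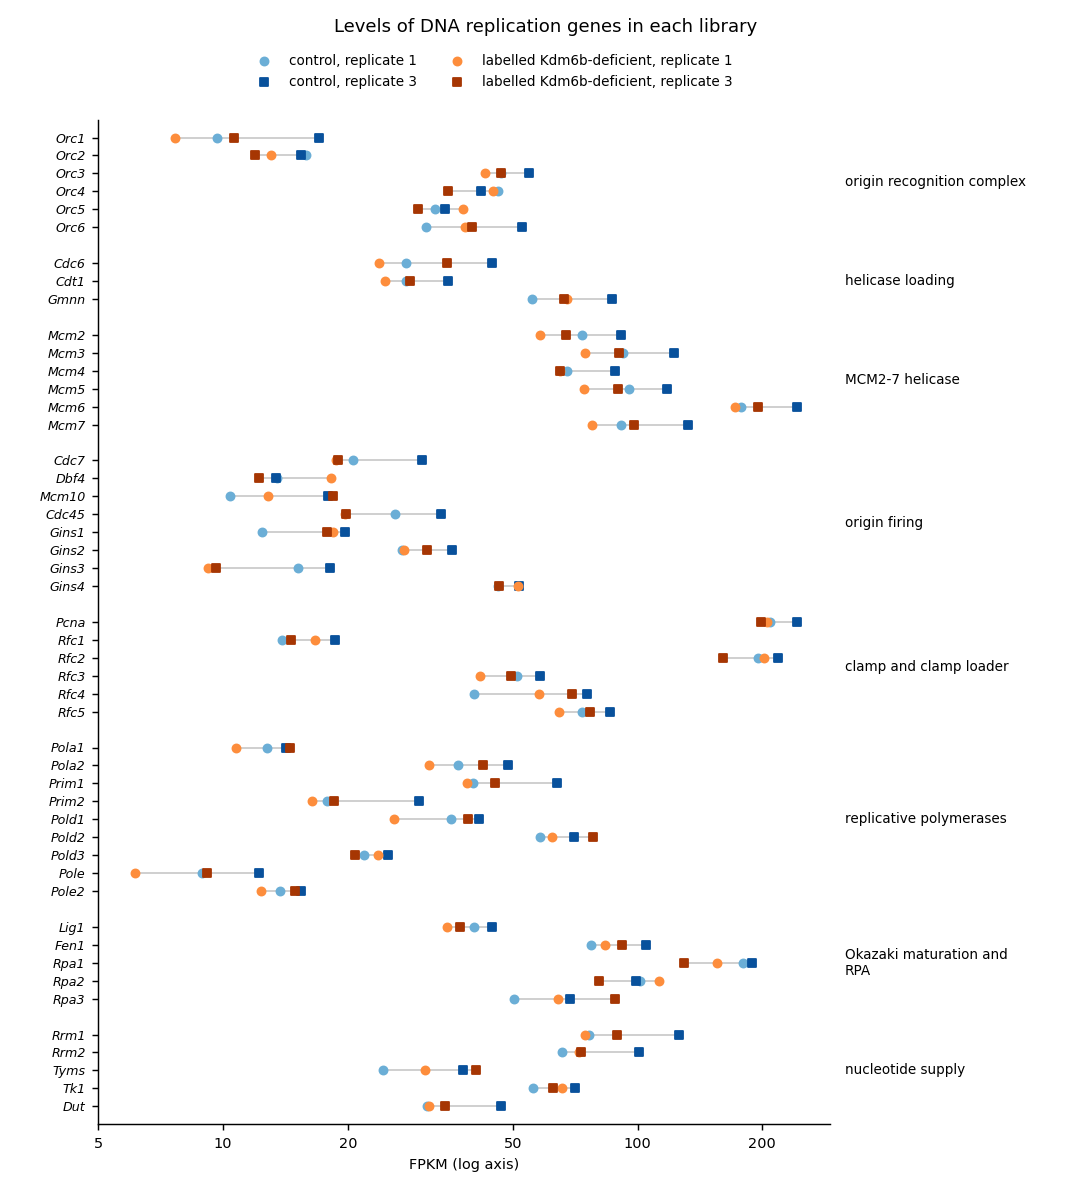
Levels of the 48 replication genes in each library, in FPKM on a log axis. Each point is a library (control replicates in blue, libraries labelled Kdm6b-deficient in orange and brown), grey lines span the range of a gene, and genes are ordered by their role. Control replicate 3, the dark blue square, is the rightmost point in 38 of the 48 genes.

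The comparison of the groups asks whether loss of Kdm6b changed the replication programme of these IELs. It was fitted with limma on log2(FPKM + 1), a scale on which changes of low genes are understated, and adjusted over all genes tested. None of the 48 genes passed an adjusted p of 0.05, and neither did any other gene (0 of 12009, a background of 0%). The smallest adjusted p was 0.755 among the 48 and 0.193 among all genes. This fit ignores the shared replicate numbers. A fit with them as a block, described only at the end, called 1019 of the 12009 genes and 0 of the 48. With 2 libraries per group, the exact permutation test of a single gene cannot go below p = 0.333. At an unadjusted p under 0.05, 2 of the 48 genes were found, Cdc45 and Gins3, both lower in the libraries labelled Kdm6b-deficient. The background of genes lower at this threshold was 1.55% (186 of 12009), and 642 genes passed it in either direction.

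The log2 fold changes ran from −0.76 (Gins3) to 0.35 (Rpa3) with standard errors of 0.18 to 0.35, and 46 of the 48 confidence intervals (95%) included 0. The outermost bounds of the intervals were −1.35 and 1.01. On the scale as deposited, 38 of the 48 values were negative (79.2%, against 49.9% of all genes tested) with a median of −0.18 (all genes 0.00), whereas after scaling to the Cd3 genes and Ptprc, which are T cell genes, 4 were negative with a median of 0.24. That scaling moved the median of all genes to 0.38, and 38 of the 48 genes lay below it. Both libraries labelled Kdm6b-deficient lay below both controls in 12 of the 48 genes as deposited (background 18.6%) and in none after scaling to T cell genes (background 2.43%). Both lay above both controls in 0 of the 48 as deposited (background 18.4%) and in 4 after that scaling (background 37.4%).

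**Figure D3:**
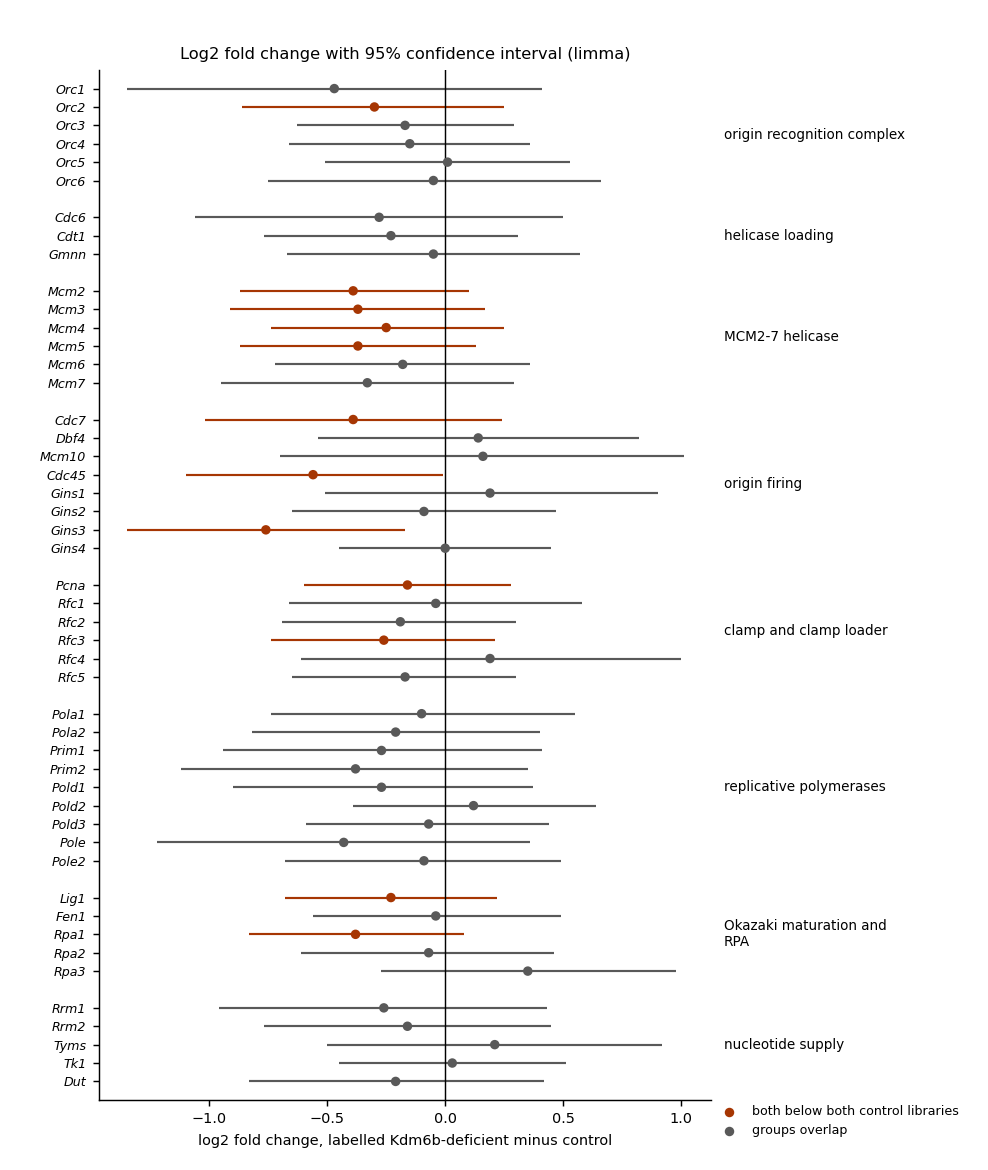
Log2 fold change (libraries labelled Kdm6b-deficient minus control) of each replication gene with its 95% confidence interval from limma, n = 2 libraries per group, on values as deposited. Genes in brown had both libraries labelled Kdm6b-deficient below both controls, and 2 intervals, of Cdc45 and Gins3, leave out 0. After scaling to the Cd3 genes and Ptprc the median of the 48 values turns from −0.18 to 0.24, and that of all genes from 0.00 to 0.38.

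Single libraries carried much of this pattern. Control replicate 3 was the highest library for 38 of the 48 genes (79.2%, against 16.1% of all genes tested) and the lowest for none. The library labelled Kdm6b-deficient replicate 1 was the lowest for 23 (47.9%, against 18.5%), control replicate 1 for 15 (31.2%, against 32.0%) and the library labelled Kdm6b-deficient replicate 3 for 10 (20.8%, against 32.5%). Between the controls, replicate 3 exceeded replicate 1 in 44 of the 48 genes with a median difference of 0.37 (all genes −0.01), a larger distance than the median between the groups. In 34 of the 48 genes the 2 controls differed by more than the group means did.

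Compared library by library, the libraries labelled Kdm6b-deficient replicates 1 and 3 lay below control replicate 3 in 44 and 43 of the 48 genes, with medians of −0.39 and −0.29. Against control replicate 1 they lay below in 28 and 18 genes, with medians of −0.05 and 0.07. Without control replicate 3, the median over the 48 genes was −0.02, 26 values were negative, and 13 genes were below and 15 above the remaining control in both libraries (background 36.5% and 38.1%). Without control replicate 1, the median was −0.33 and 39 genes were below (background 28.6%). Leaving out the library labelled Kdm6b-deficient replicate 1 gave −0.14 with 18 genes below and 5 above both controls (background 39.4% and 39.2%). Leaving out replicate 3 gave −0.24 with 27 below and 3 above (background 30.1% and 32.5%). Each of these fits leaves 1 library in a group, so no test result is given for them here. The epithelial and crypt marker sums, lowest in control replicate 1 and highest in the library labelled Kdm6b-deficient replicate 3, were higher in control replicate 3 than in replicate 1, as were 44 of the 48 genes, and their part in these values was not tested.

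**Figure D4:**
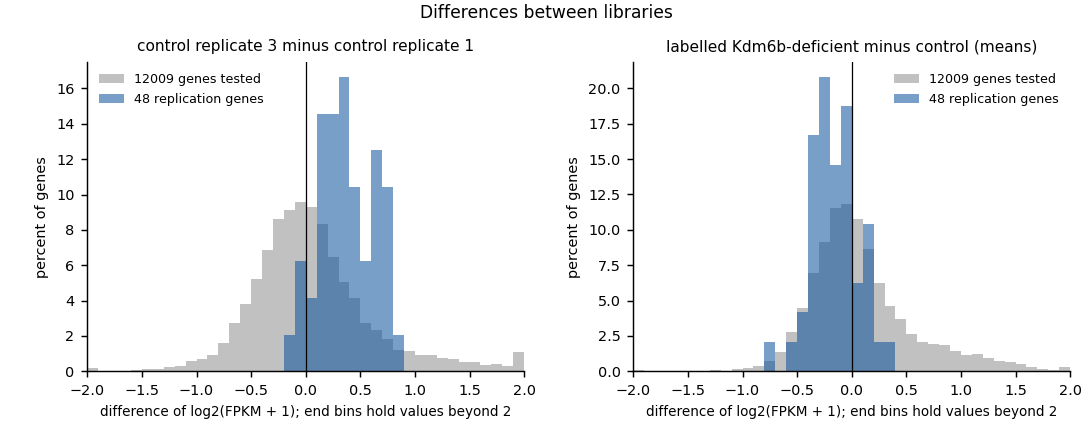
Percent of genes by difference of log2(FPKM + 1), in bins of 0.1, for the 48 replication genes (blue) and the 12009 genes tested (grey). Left, control replicate 3 minus control replicate 1, where 44 of the 48 genes are above 0. Right, libraries labelled Kdm6b-deficient minus control, where 38 are below 0 as deposited. After scaling to the Cd3 genes and Ptprc, which is not drawn, 4 are below 0 and 38 are below the median of all genes (0.38).

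The MCM2-7 helicase had the most negative median of the sub-groups (−0.35): all 6 genes had a negative log2 fold change as deposited, and all 6 a positive one, from 0.03 to 0.24, after scaling to T cell genes. All 6 values lay below the median of all genes on either scale (0.00 and 0.38). Without control replicate 3, the values as deposited were −0.23, −0.17, −0.06, −0.22, 0.04 and −0.06 for Mcm2 to Mcm7 in turn. Its 6 genes summed to 598 and 794 FPKM in control replicates 1 and 3, and to 521 and 605 FPKM in those labelled Kdm6b-deficient replicates 1 and 3. The second of these sums exceeded that of control replicate 1, so the groups overlapped. Here and below, pairs of values are given in the order of replicates 1 and 3, and ± is the standard error of the log2 fold change from limma. All 6 genes were highest in control replicate 3, and 5 were lowest in the library labelled Kdm6b-deficient replicate 1.

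Mcm2 (chromosome 6, 88883474 to 88898780) had 73.62 and 91.01 FPKM in the controls and 58.03 and 67.2 FPKM in those labelled Kdm6b-deficient, with a log2 fold change of −0.39 ± 0.20 (SE, n = 2 per group, limma adjusted p = 0.755). Mcm3 had 92.25 and 122.54 FPKM against 74.49 and 90.03 FPKM (−0.37 ± 0.22). Mcm5 had 95.24 and 117.46 FPKM against 74.07 and 89.84 FPKM (−0.37 ± 0.20). In these 3 genes the groups did not overlap, though the nearest libraries of the groups lay close. Mcm4 had 67.71 and 88.37 FPKM against 65.06 and 64.96 FPKM (−0.25 ± 0.20), again without overlap. These 4 of the 6 genes stand beside a background of 18.6%, and after scaling to T cell genes 0 of the 6 were lower in both (background 2.43%). Mcm7 overlapped between groups, with 91.3 and 132.57 FPKM against 77.85 and 98.03 FPKM (−0.33 ± 0.25). Mcm6, the most abundant subunit per length, had 177.76 and 242.09 FPKM against 171.41 and 195.38 FPKM (−0.18 ± 0.22). It stood above the mean of the other 5 subunits by 2.12 and 2.19 times in the controls and by 2.45 and 2.38 times in the libraries labelled Kdm6b-deficient. The proteins themselves form a ring with a single copy of each.

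The origin firing genes, which convert the loaded ring into a moving helicase, were split: 4 of 8 had a negative and 4 a positive log2 fold change, with a median of −0.05. The 2 genes with an unadjusted p under 0.05 were both in this group. Gins3 encodes a subunit of the GINS complex (chromosome 8, 95633559 to 95645059). It had 15.17 and 18.15 FPKM in control replicates 1 and 3 and 9.2 and 9.61 FPKM in those labelled Kdm6b-deficient. The ratio of the means was 0.565, and the log2 fold change was −0.76 ± 0.24 (SE, n = 2 per group, limma unadjusted p = 0.0209, adjusted p = 0.755). Both libraries labelled Kdm6b-deficient lay well below both controls.

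Cdc45, which holds the MCM ring and GINS together in the active helicase (chromosome 16, 18780447 to 18811972), had 25.94 and 33.57 FPKM in the controls. In the libraries labelled Kdm6b-deficient it had 19.72 and 19.79 FPKM, nearly the same value in each. Its ratio of means was 0.664 and its log2 fold change −0.56 ± 0.22 (limma unadjusted p = 0.0468, adjusted p = 0.755). The interval of the difference reached from −1.10 to −0.01. After scaling to the Cd3 genes and Ptprc, the log2 fold changes were −0.36 for Gins3 and −0.15 for Cdc45, and the groups overlapped in both. That scaling moved the median of all genes to 0.38, and both genes lay below it. Cdc7, the kinase that triggers firing, had groups without overlap too (20.56 and 30.2 against 18.7 and 18.94 FPKM, log2 fold change −0.39 ± 0.25). It was added after its values were seen. Gins3, Cdc45 and Cdc7, 3 of the 8 origin firing genes, stand beside a background of 18.6%. With scaling to the Cd3 genes and Ptprc, both libraries labelled Kdm6b-deficient lay below both controls for 0 replication genes (background 2.43%).

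The other GINS subunits had values nearer to 0. Gins4 had 46.15 and 51.68 FPKM in the controls and 51.52 and 46.32 FPKM in those labelled Kdm6b-deficient, a log2 fold change of 0.00 ± 0.18 with an interval from −0.45 to 0.45. Gins1 had 12.41 and 19.74 FPKM against 18.41 and 17.77 FPKM (0.19 ± 0.28), with groups that overlapped. The level of Gins4 over that of Gins3 was 3.04 and 2.85 in the controls and 5.6 and 4.82 in the libraries labelled Kdm6b-deficient, a ratio within each library that no scaling of libraries alters. The difference between GINS subunits was not tested. Gins3 had the most negative value of the 48 genes, and picking it for that favours a shifted ratio. Mcm10 and Dbf4, a firing factor and the activator of Cdc7, had log2 fold changes of 0.16 and 0.14 with overlapping groups.

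Among the ORC genes, which mark origins, 5 of 6 log2 fold changes were negative with a median of −0.16, and 1 gene (Orc2) had groups without overlap (background 18.6%). Orc3, the most abundant per length by its mean though below Orc4 in the library labelled Kdm6b-deficient replicate 1, had 46.85 and 54.66 FPKM in the controls and 42.85 and 46.87 FPKM in those labelled Kdm6b-deficient (−0.17 ± 0.18). Orc1 was the lowest or next to lowest subunit in each library. It had 9.69 and 17.08 FPKM against 7.66 and 10.62 FPKM (−0.47 ± 0.35), and its controls differed from each other 1.76-fold, more than the groups. Orc5 had 32.37 and 34.25 FPKM against 37.91 and 29.6 FPKM, with a log2 fold change of 0.01 ± 0.21.

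Of the helicase loading genes, Cdc6, an ATPase that loads the ring, had 27.6 and 44.54 FPKM in the controls and 23.8 and 34.68 FPKM in those labelled Kdm6b-deficient (−0.28 ± 0.31). Gmnn, which encodes geminin, the inhibitor of Cdt1, had 55.69 and 86.63 FPKM against 67.44 and 66.52 FPKM (−0.05 ± 0.25). Groups overlapped in all 3 genes (background without overlap 18.6% lower and 18.4% higher). Each was highest in control replicate 3, as were 16.1% of all genes tested. Gmnn exceeded Cdt1 per length in every library, by 2.02 and 2.48 times in the controls and by 2.75 and 2.35 times in the libraries labelled Kdm6b-deficient.

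Pcna encodes the sliding clamp that tethers polymerases to DNA (chromosome 2, 132249286 to 132253180) and had the highest mean level of the 48 genes. It had 209.23 and 242.21 FPKM in the controls and 204.78 and 198.73 FPKM in those labelled Kdm6b-deficient, a log2 fold change of −0.16 ± 0.18. The groups did not overlap, but the nearest libraries were closer than the controls were to each other. Of the loader, Rfc3 had groups without overlap (51.31 and 58.29 against 41.66 and 49.45 FPKM, −0.26 ± 0.19). Pcna and Rfc3, 2 of the 6 genes, stand beside a background of 18.6%. After scaling to T cell genes their log2 fold changes were 0.26 and 0.15 (median of all genes 0.38). Rfc4 had 40.42 and 75.69 FPKM in the controls, the widest gap in proportion between controls among the 48 genes, and 57.97 and 69.44 FPKM in those labelled Kdm6b-deficient (0.19 ± 0.32). Both of the latter lay between the controls. Per length, Rfc2 was 14.0 and 11.7 times as abundant as Rfc1, the large subunit, in the controls.

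The replicative polymerases had 8 of 9 negative log2 fold changes (median −0.21, against 49.9% negative over all genes), and groups overlapped in all 9 (background without overlap 18.6% lower and 18.4% higher). Pole, the catalytic subunit of the leading strand polymerase ε, had 8.92 and 12.24 FPKM in the controls and 6.12 and 9.17 FPKM in those labelled Kdm6b-deficient (−0.43 ± 0.32). Pold2, an accessory subunit of polymerase δ, had 58.22 and 70.2 FPKM against 62.1 and 78.05 FPKM (0.12 ± 0.21). Of the 9 genes, 7 were highest in control replicate 3 and 7 lowest in the library labelled Kdm6b-deficient replicate 1. Within the complexes the order of levels was stable: Prim1 was the top and Pola1 the bottom subunit of polymerase α-primase, Pold2 the top and Pold3 the bottom of polymerase δ, and Pole2 exceeded Pole, in all 4 libraries.

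Okazaki fragment maturation and single-strand binding gave a median of −0.07 over 5 genes. Rpa1, the large subunit of the single-strand binding protein RPA, had 179.65 and 188.86 FPKM in the controls and 155.34 and 129.33 FPKM in those labelled Kdm6b-deficient (−0.38 ± 0.18, limma adjusted p = 0.755). Its groups did not overlap, and its controls were close to each other. Rpa3, the small subunit, had 50.29 and 68.76 FPKM against 64.27 and 88.38 FPKM (0.35 ± 0.25), the largest positive value among the 48, with overlap. The level of Rpa1 over that of Rpa3 was 3.57 and 2.75 in the controls and 2.42 and 1.46 in the libraries labelled Kdm6b-deficient. This ratio within a library was thus lower in both, a difference that was not tested. Rpa1 and Rpa3 were picked as the ends of their sub-group, which favours a shifted ratio. Lig1, the ligase that seals the fragments, was the other gene of the group without overlap (40.32 and 44.65 against 34.78 and 37.28 FPKM, −0.23 ± 0.18). These 2 of the 5 genes stand beside a background of 18.6%. After scaling to T cell genes, Rpa1 had 0.05 (median of all genes 0.38), and 0 of the 48 genes were lower in both (background 2.43%).

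The nucleotide supply genes had 3 negative and 2 positive log2 fold changes (all genes 49.9% negative) and no gene without overlap (background 18.6% lower and 18.4% higher). Rrm1, the large subunit of ribonucleotide reductase, had 76.52 and 126.15 FPKM in the controls and 74.83 and 89.1 FPKM in those labelled Kdm6b-deficient (−0.26 ± 0.28). Tyms, thymidylate synthase, had 24.34 and 37.89 FPKM against 30.65 and 40.71 FPKM (0.21 ± 0.28). In 4 of the 5 genes control replicate 1 was the lowest library. Their mean of log2(FPKM + 1) was 5.57 and 6.14 in control replicates 1 and 3, against 5.70 and 5.84 in the libraries labelled Kdm6b-deficient, both of which lay between the controls.

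**Figure D5:**
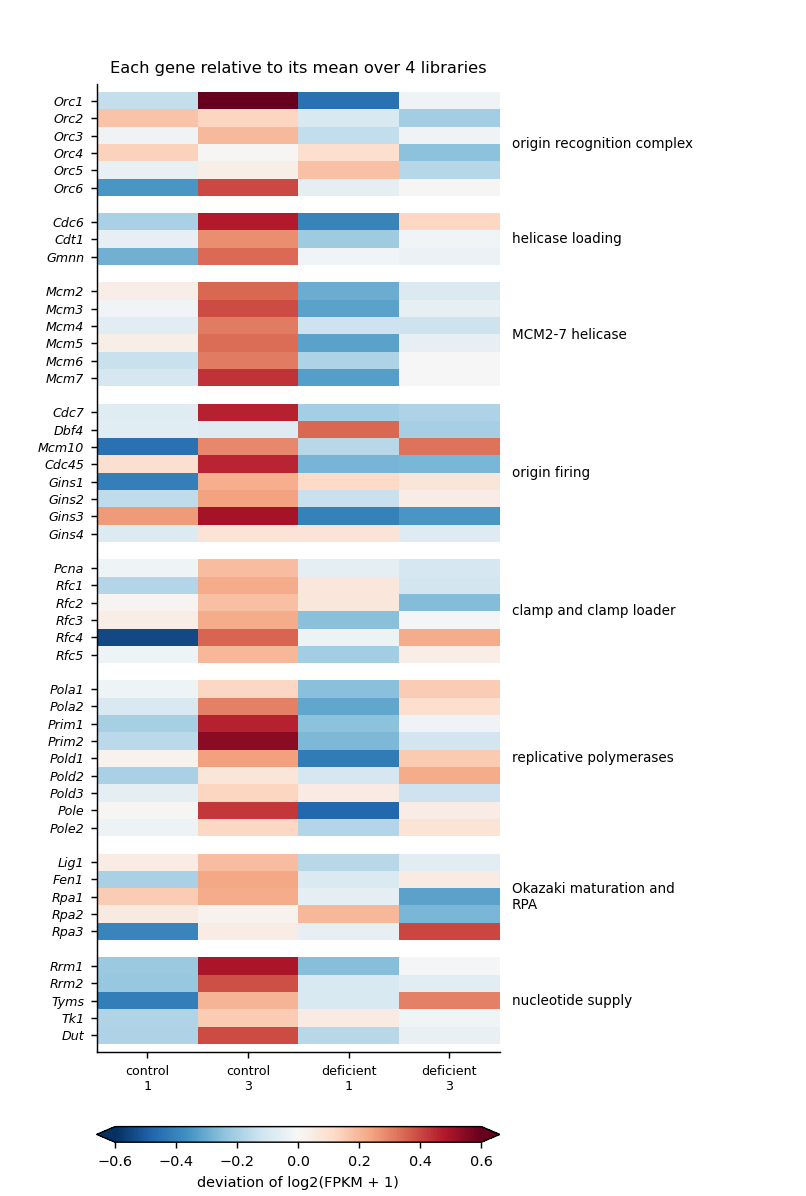
Deviation of log2(FPKM + 1) of each replication gene from its mean over the 4 libraries (red above, blue below, colours end at 0.6). Columns are control replicates 1 and 3 and the libraries labelled Kdm6b-deficient replicates 1 and 3 (written deficient), on values as deposited. The control replicate 3 column holds the highest value in 38 of 48 rows, and Gins3 and Cdc45 are low in both of the last columns.

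Set beside the promoter letters shown above, the 15 genes with E2F letters had a median log2 fold change of −0.26 as deposited and the 25 without had −0.15. The median difference between the controls, replicate 3 minus replicate 1, was 0.24 with the letters and 0.40 without. Control replicate 3 was the highest library for 14 of the 15 and for 16 of the 25. The other letters gave gaps in log2 fold change too: −0.26 with CCAAT and −0.17 without, and −0.39 with TTTGAA (7 genes) and −0.17 without. These values are a description without a test.

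Further genes of the same pathways were read from lists of their own, and 0 of their 101 genes passed the adjusted threshold. Of 32 other fork and replisome genes, 5 were below and 1 above both controls in both libraries labelled Kdm6b-deficient (background 18.6% and 18.4%), and the median log2 fold change was −0.12. Their ends were Recql4, a helicase of origin firing, with 3.33 and 4.59 FPKM against 0.99 and 3.22 FPKM (−0.76 ± 0.46), and Supt16, a subunit of the FACT histone chaperone, with 24.63 and 33.37 FPKM against 42.38 and 38.78 FPKM (0.49 ± 0.22). Of 21 other nucleotide supply genes, 8 were below and 0 above (background 18.6% and 18.4%), with a median of −0.09. The mitochondrial thymidine kinase Tk2 had 46.57 and 29.36 FPKM against 28.39 and 21.7 FPKM (−0.56 ± 0.29), and Shmt1, of one-carbon metabolism, had 11.19 and 22.05 FPKM against 19.62 and 34.72 FPKM (0.70 ± 0.42).

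Of 28 regulators of the G1/S transition, 2 were below and 6 above (background 18.6% and 18.4%), with a median of −0.03. Ccnd1, cyclin D1, had 0.86 and 4.57 FPKM in the controls and 8.05 and 8.85 FPKM in those labelled Kdm6b-deficient (1.55 ± 0.55, limma unadjusted p = 0.034, adjusted p = 0.755). Its lowest and highest libraries, control replicate 1 and the library labelled Kdm6b-deficient replicate 3, were those of the epithelial and crypt markers, whose part in its values was not tested. Cdkn2c, an inhibitor of its partner kinases, had 11.14 and 11.76 FPKM against 10.16 and 6.11 FPKM (−0.48 ± 0.31). Cdkn1a, another inhibitor of cyclin-dependent kinases, had 51.07 and 53.89 FPKM against 73.44 and 68.1 FPKM (0.42 ± 0.17, limma unadjusted p = 0.0488, adjusted p = 0.755), above both controls in both libraries. Ccnd1 and Cdkn1a were the 2 genes of the list with an unadjusted p under 0.05, which 642 of the 12009 genes passed. The 20 mitosis genes had a median of 0.03 with 9 negative values, and control replicate 3 was their highest library in 17 of 20, as it was for the replication genes. Mki67, the gene of the proliferation antigen Ki-67, had 28.08 and 33.7 FPKM against 27.17 and 23.58 FPKM (−0.27 ± 0.21) and was the only mitosis gene below both controls in both libraries, with 0 of the 20 above (background 18.6% and 18.4%). The ends of that list were Bub1, a checkpoint kinase, with 15.18 and 21.2 FPKM against 12.95 and 15.6 FPKM (−0.32 ± 0.26), and Ccnb1, cyclin B1, with 45.11 and 79.97 FPKM against 71.26 and 79.21 FPKM (0.32 ± 0.30).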

How the data were processed

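CD45+CD4−TCRβ+CD8α+CD8β− cells were sorted, and RNA of 3 mice was pooled per library. The authors aligned reads by HISAT and Bowtie2 (mm10) and deposited FPKM from RSEM, which divides reads that match several genes. The submitters' notes list Bowtie2 2.2.5 and RSEM 1.2.8, and the annotation is not given in the sources used here. Symbols, positions and promoters came from RefSeq on GRCm38.p6, which matched 18467 of 19339 genes, and 758 genes were listed without an Entrez identifier. Total reads are unknown. Relative depth came from the steps between low FPKM multiplied by transcript length. Groups followed the labels, with 2 libraries each.

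The 12009 genes that reached 1 FPKM in 2 or more libraries were tested as log2(FPKM + 1) by limma 3.58.1 in R 4.3.3 (lmFit, then eBayes with its trend option), with Benjamini-Hochberg adjustment over all of them and 3.52 prior degrees of freedom. A standard error or interval is limma's. The members, lists and tests were chosen with earlier results of these data known. Named with all values are the MCM2-7 genes, Pcna, the most abundant gene and both ends of each sub-group, genes with an unadjusted p under 0.05, Mki67 and both ends of each pathway list. Cdc7 and Lig1 were added after their values were seen. Alternatives (13) are given at the end. Python 3.11.15 with numpy 2.4.6, pandas 2.3.3 and matplotlib 3.10.9 served for tables and figures.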

Additional observations from a re-analysis of the deposited data

How the results depend on the processing

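No replication gene passed an adjusted p of 0.05 in limma under any of the 13 alternatives. Pseudocounts of 0.1 and 0.01, no filter and a filter at 5 FPKM left the median log2 fold change of the 48 genes at −0.18. It was −0.19 with median-of-ratios scaling and −0.23 with quantile normalization. There the values near 0 changed sign: Orc5 to −0.0048 and −0.02, and Gins4 to −0.01 and −0.00076. Scaling to the Cd3 genes and Ptprc gave a median of 0.24, 0 genes with an unadjusted p under 0.05, and both libraries labelled Kdm6b-deficient lay below the controls for 0 genes and above them for 4 (2.43% and 37.4% of all genes). With it the log2 fold change was positive for Orc3 (0.24), Cdc6 (0.13), Gmnn (0.37), Mcm2 (0.03), Mcm3 (0.05), Mcm4 (0.17), Mcm5 (0.05), Mcm6 (0.24), Mcm7 (0.09), Pcna (0.26), Rfc3 (0.15), Rpa1 (0.05) and Rrm1 (0.15). This scaling multiplies every FPKM of a library by the same factor: the median of all genes moved to 0.38, and 38 of the 48 genes lay below it, against 39 below the median of all genes as deposited. Without a trend in limma, 1 gene had an unadjusted p under 0.05.

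With each library left out in turn, 13 to 39 replication genes were lower in the libraries labelled Kdm6b-deficient (28.6% to 39.4% of all genes). From 0 to 15 were higher (28.9% to 39.2% of all genes), and the median ran from −0.33 to −0.02. Values that changed sign ran from −0.16 to 0.18 for Orc5, −0.12 to 0.51 for Gins1, −0.08 to 0.08 for Gins4, −0.25 to 0.64 for Rfc4, −0.04 to 0.28 for Pold2, −0.10 to 0.52 for Tyms, −0.61 to 0.06 for Cdc6, −0.37 to 0.26 for Gmnn, −0.40 to 0.04 for Mcm6 and −0.62 to 0.09 for Rrm1. A lone library was assumed to vary like the other group.

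The groups share the replicate numbers 1 and 3, and nothing in the labels ties equal numbers to a shared pool or day. Deviations of same-numbered libraries correlated at 0.56 across 12009 genes, which are not independent. With the replicate number as a block (replicate block), 1019 of all genes passed the adjusted threshold, 0 of them replication genes (smallest adjusted p 0.0565), and 8 replication genes had an unadjusted p under 0.05, beside 2736 of the 12009 genes. In neither fit did a replication gene pass the adjusted threshold. With 2 libraries per group and unknown total reads, the changes of these genes could not be told from the spread between pools.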
